A study of Mus musculus with 9 samples.

Results

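The genes described here are 49 genes of DNA replication: those that license the origins, build and drive the fork, supply the nucleotides and carry cells into S phase. They were chosen by name, with earlier results of these data known, so that counts of falling members are not independent evidence of a decline. Of the 49, 47 were tested for a trend with age, among 10864 genes tested in all. Orc1, the large subunit of the origin recognition complex, did not pass the filter on low values, and Chaf1a, a subunit of chromatin assembly factor 1, had no probe set carrying its name alone and was not analysed here.

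A cell copies its genome once per cycle. In G1 the origin recognition complex, Cdc6 and Cdt1 load the ring-shaped MCM helicase on the DNA, and in S phase kinases, Cdc45 and the GINS complex turn it into a moving fork where polymerases, the sliding clamp and ligase copy both strands. Many of these genes are targets of E2F transcription factors and are transcribed mainly in dividing cells. In the embryonic olfactory bulb, the forebrain region that receives the axons of the nose, the dividing cells are progenitors around the ventricle, while the neurons they give rise to have left the cycle.

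Messenger RNA was measured with Affymetrix mouse genome arrays in olfactory bulbs of CD1 mice, an outbred strain, dissected daily on embryonic days 11 to 18 (E11 to E18) and on the day of birth (P0). Each of the 9 ages was 1 array, made from the bulbs of 1 individual. With no replicates, the scatter of the 9 arrays around a trend stood in for the error and limits every value. The RNA was whole-bulb RNA amplified in 2 rounds. In such bulk RNA, fewer dividing cells and less of a messenger per cell cannot be told apart. The values are log2 levels per probe set after GCRMA, a background correction and normalization for these arrays. Their median over all probe sets lay between 4.08 and 4.23 on the 9 arrays. The gap between probe sets near the 3' and the 5' end, a sign of RNA quality, was 1.55, 1.77, 1.67, 2.12, 1.90, 1.92, 2.07, 2.04 and 1.87 log2 units for Gapdh at E11 to P0. For Actb it was 1.48 to 1.68 from E11 to E14 and 1.71 to 1.90 from E15 to P0. The gap was thus wider on most later arrays, and its part in the decline of the replication genes was not tested.

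Replication genes fell together over the course. Their median log2 level was 10.36 at E11, 9.76 at E12, 9.65 at E13, 9.39 at E14, 9.19 at E15, 8.94 at E16, 8.75 at E17, 8.51 at E18 and 8.37 at P0. A gene was called where the slope of its log2 level on age passed an adjusted p of 0.05 (limma, two-sided, Benjamini-Hochberg over all genes tested). By this test 44 of the 47 fell, 0 rose, and Orc3, Orc4 and Orc5 did not pass. Among all genes tested 21.9% fell and 25.2% rose. The median slope was -0.26 log2 units per day over the 47, against 0.0020 over all genes tested. All 47 read lower at P0 than at E11, which held for 48.9% of all genes tested, and the median difference was -2.18 log2 units. The level was at least 2-fold lower at P0 than at E11 for 42 of the 47 and at least 4-fold lower for 27. At P0, 45 of the 47 still read log2 5 or more. The fold counts and this count were not made over all genes tested.

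**Figure D1:**
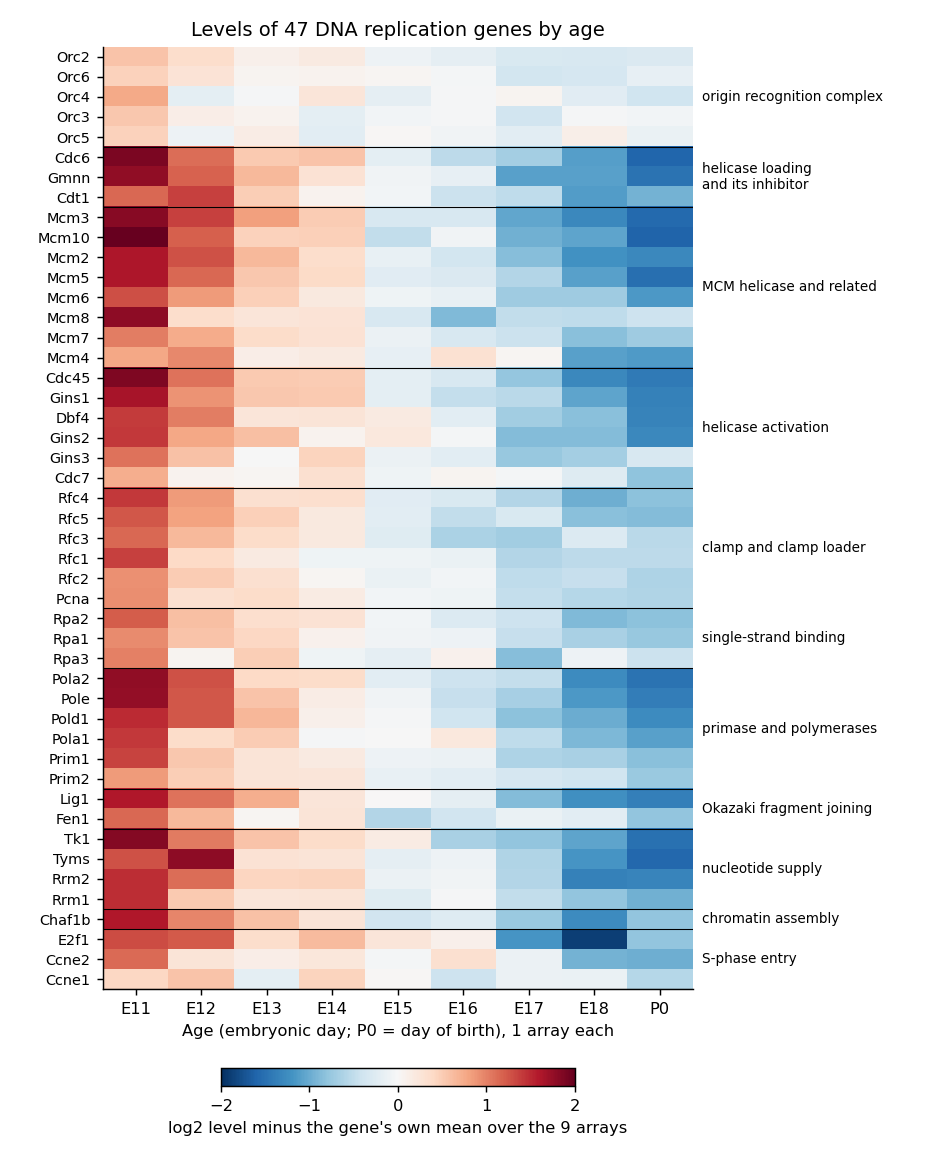
Level of each of the 47 genes tested (rows, grouped by role) on the array of each age (columns, E11 to P0), as the difference in log2 units from the gene's own mean over the 9 arrays. The E11 column holds the highest reading of 43 genes, and the P0 column the lowest of 31, counts not made over all genes tested.

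The fall was spread over the days. Of the 47 genes, 43 read lower at E12 than at E11, 42 at E13 than at E12, and 42 each at E15 than at E14 and at E17 than at E16. Over these 4 steps the share of all genes tested that read lower was 54.8%, 42.5%, 38.0% and 63.9%. Fewer did so at E14 against E13, where 30 of the 47 were close to the 61.0% of all genes tested, and at E16 against E15 (33, and 44.8% of all genes). Lower readings were also counted at E18 against E17 for 36 genes (50.3% of all genes) and at P0 against E18 for 35 (44.5% of all genes). For 13 genes every one of the 8 daily steps was downward, a count not made over all genes tested. The E11 array stood above the trend lines, with 42 of 47 genes higher than their own fitted line, as did P0 with 34. The E13 and E15 arrays stood below them, with 4 and 8 of 47 higher. On the other arrays 20 to 28 were higher. These counts were not made over all genes tested. Without the E11 array 42 genes still fell, and in a fit of E13 to P0 alone 36 did. Over all genes, fewer were called falling in these fits too, 1788 and 1193, against 2382 with every array.

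**Figure D2:**
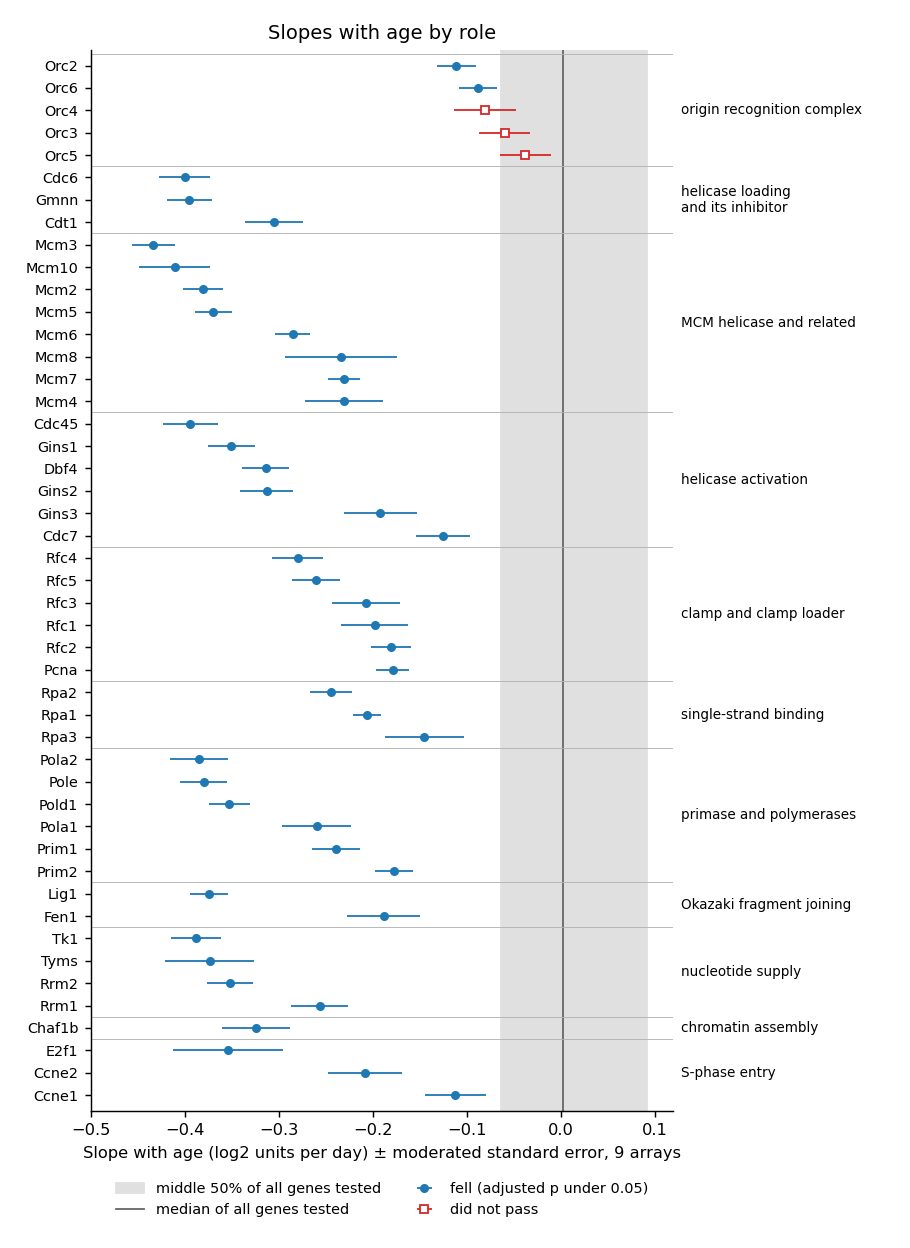
Slope of the log2 level on age for each of the 47 genes, with its moderated standard error over 9 arrays, ordered by role. Filled blue points mark the 44 genes that fell and open red points the 3 that did not pass, and the grey band holds the middle 50% of all genes tested, slopes of -0.064 to 0.092.

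The origin recognition complex marks the origins throughout the cycle and recruits the loading factors. It was the flattest of the roles, with a median slope of -0.08 over its 5 tested subunits, of which 2 fell. Orc2 read 8.96 at E11, 8.73 at E12, 8.49 at E13, 8.57 at E14, 8.28 at E15, 8.21 at E16, 8.08 at E17, 8.07 at E18 and 8.09 at P0. It fell by 0.11 ± 0.021 log2 units per day (adjusted p = 0.00167), with 78.4% of its difference between E11 and P0 covered by E15. A dimmer Orc2 probe set had a slope of -0.20 (adjusted p = 0.0079). Orc6 read 9.42 at P0, against 10.05 at E11, and fell by 0.088 ± 0.020 per day (adjusted p = 0.00504). In the fit of E13 to P0 neither passed, with adjusted p of 0.0579 for Orc2 and 0.121 for Orc6.

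The other 3 subunits tested had no slope past the threshold. Orc5 read 9.34 at E11, 8.78 at E12, 9.03 at E13, 8.67 at E14, 8.91 at E15, 8.81 at E16, 8.67 at E17, 9.001 at E18 and 8.75 at P0. Only its E11 array stood above 9.03, and its slope was -0.038 ± 0.027 (adjusted p = 0.274). Orc3 had 8.47 at P0, against 9.06 at E11, with a slope of -0.060 ± 0.027 (adjusted p = 0.0983). Orc4 had 9.28 at P0, against 10.43 at E11, with a slope of -0.080 ± 0.033 (adjusted p = 0.0671). Both Orc3 and Orc4 passed after median centring of the arrays, with adjusted p of 0.0460 and 0.0284, and Orc4 passed without the E12 array (0.0165). Without the E11 array all 3 slopes were smaller, at -0.028 for Orc3 (adjusted p = 0.461), -0.034 for Orc4 (0.404) and -0.0048 for Orc5 (0.904). Another Orc4 probe set had a slope of -0.0017 (adjusted p = 0.963).

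Orc1 differed in its readings from these subunits. In human cells its protein is broken down in S phase and made anew in the next cycle. Its probe set of highest mean read 5.98 at E11, 4.65 at E12, 3.32 at E13, 3.73 at E14, 3.02 at E15, 3.33 at E16, 3.34 at E17, 3.04 at E18 and 3.32 at P0. Its other probe set, of lower mean, read 6.73 at E11, 3.01 at E12, 4.49 at E13 and at most 2.91 from E14 on. Both were above log2 5 at E11 alone, which the filter left out. In a limma fit over the probe sets past the filter plus every probe set of a member, their slopes were -0.26 ± 0.080 (adjusted p = 0.0222) and -0.40 ± 0.12 (adjusted p = 0.0190). In a separate fit of all genes without the filter, 45 members fell.

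The factors that load the helicase and the inhibitor that keeps loading to once per cycle fell steeply, 3 of 3, with a median slope of -0.40. Cdc6, the ATPase that joins the origin complex to load MCM rings, read 9.99 at E11, 9.22 at E12, 8.63 at E13, 8.67 at E14, 7.90 at E15, 7.58 at E16, 7.43 at E17, 7.004 at E18 and 6.51 at P0. It was 11.1-fold lower at P0 than at E11, with a slope of -0.40 ± 0.027 (adjusted p = 6.21e-06). Gmnn encodes geminin, which binds and blocks Cdt1. Its level was 11.95 at E11, 11.37 at E12, 10.83 at E13, 10.47 at E14, 10.11 at E15, 10.03 at E16, 9.09 at E17, 9.10 at E18 and 8.70 at P0, with a slope of -0.40 ± 0.024 (adjusted p = 4.99e-06). Cdt1, the partner of Cdc6 in loading, was highest at E12 (10.68) and lowest at E18 (8.20). It read 8.37 at P0, against 10.46 at E11, and fell by 0.31 ± 0.031 per day (adjusted p = 4.86e-05). The slopes of Cdt1 and geminin, activator and inhibitor, differed by 0.090 ± 0.041 log2 units per day, which did not pass an exact permutation test over the 9 ages (adjusted p = 0.138 over 23 pairs).

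The 6 subunits of the MCM2-7 ring, the motor of the replicative helicase, all fell, with slopes of -0.43 to -0.23 and a median of -0.33. Mcm3 had the steepest slope of the 47 genes. It read 11.61 at E11, 11.16 at E12, 10.61 at E13, 10.29 at E14, 9.48 at E15, 9.47 at E16, 8.75 at E17, 8.51 at E18 and 8.23 at P0. Every step was downward and P0 was 10.4-fold below E11, with a slope of -0.43 ± 0.023 (adjusted p = 4.99e-06). Mcm5 behaved likewise, with 12.95 at E11, 12.48 at E12, 11.87 at E13, 11.72 at E14, 11.10 at E15, 11.04 at E16, 10.75 at E17, 10.24 at E18 and 9.81 at P0. Its slope was -0.37 ± 0.020 (adjusted p = 4.99e-06).

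The remaining ring subunits covered a range of slopes. Mcm2 read 7.93 at P0, against 10.84 at E11, and fell by 0.38 ± 0.021 per day (adjusted p = 4.99e-06). Mcm6 read 9.74 at P0, against 12.17 at E11, and fell by 0.29 ± 0.019 per day (adjusted p = 5.84e-06). Mcm7 read 12.21 at P0, against 13.94 at E11, and fell by 0.23 ± 0.017 per day (adjusted p = 8.64e-06). Mcm4, by its brighter probe set, read 11.96 at E11, 12.15 at E12, 11.32 at E13, 11.36 at E14, 11.03 at E15, 11.50 at E16, 11.22 at E17, 10.10 at E18 and 10.05 at P0. Its 2 last arrays were the low ones, and the slope of this probe set was -0.23 ± 0.042 (adjusted p = 0.00145). Its second probe set declined more evenly, with 11.10 at E11, 10.62 at E12, 10.41 at E13, 10.16 at E14, 9.73 at E15, 9.86 at E16, 9.24 at E17, 8.94 at E18 and 8.64 at P0, and a slope of -0.29.

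Mcm8 and Mcm10 share a name with the ring but have other roles. Mcm10, which binds the activated helicase and the first polymerase, read 9.75 at E11, 8.92 at E12, 8.18 at E13, 8.19 at E14, 7.23 at E15, 7.65 at E16, 6.76 at E17, 6.66 at E18 and 6.12 at P0. It fell by 0.41 ± 0.038 per day (adjusted p = 3.05e-05) and was 12.3-fold lower at P0 than at E11. Mcm8, a helicase of recombination repair, read 6.82 at E11, 5.38 at E12, 5.27 at E13, 5.30 at E14, 4.71 at E15, 4.15 at E16, 4.54 at E17, 4.52 at E18 and 4.61 at P0. Its readings from E15 on were below log2 5, so that the level at P0 was at least 3.53-fold lower than at E11. Its slope of -0.23 ± 0.060 (adjusted p = 0.00927) no longer passed without the E11 array (-0.14, adjusted p = 0.0541) or in the fit of E13 to P0 (-0.13, adjusted p = 0.168), and with readings under log2 5 set to 5 it was -0.15 (adjusted p = 0.0265). The slopes of Mcm2 and Mcm8 differed by -0.15 ± 0.059, which did not pass over all ages (exact permutation test, adjusted p = 0.109) and did without the E11 array (-0.23, adjusted p = 0.0205).

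Mcm2 fell faster than each of the 5 tested subunits of the origin complex that loads the ring. The within-array difference, Mcm2 minus the Orc gene, was followed over age in 5 pairs that were added after the slopes were known, so that their p-values are not independent evidence. The slope of this difference was -0.27 ± 0.011 log2 units per day for Orc2 and -0.29 ± 0.013 for Orc6, each with adjusted p = 7.72e-05 from an exact permutation test over the 9 ages, with 28 pairs tested. It was -0.32 ± 0.023 for Orc3 (exact permutation test, adjusted p = 0.000206), -0.30 ± 0.040 for Orc4 (adjusted p = 0.00139) and -0.34 ± 0.032 for Orc5 (adjusted p = 0.000494). The difference moved downward in all 8 daily steps for Orc2 and Orc6, and in 7, 6 and 5 of them for Orc3, Orc4 and Orc5.

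**Figure D3:**
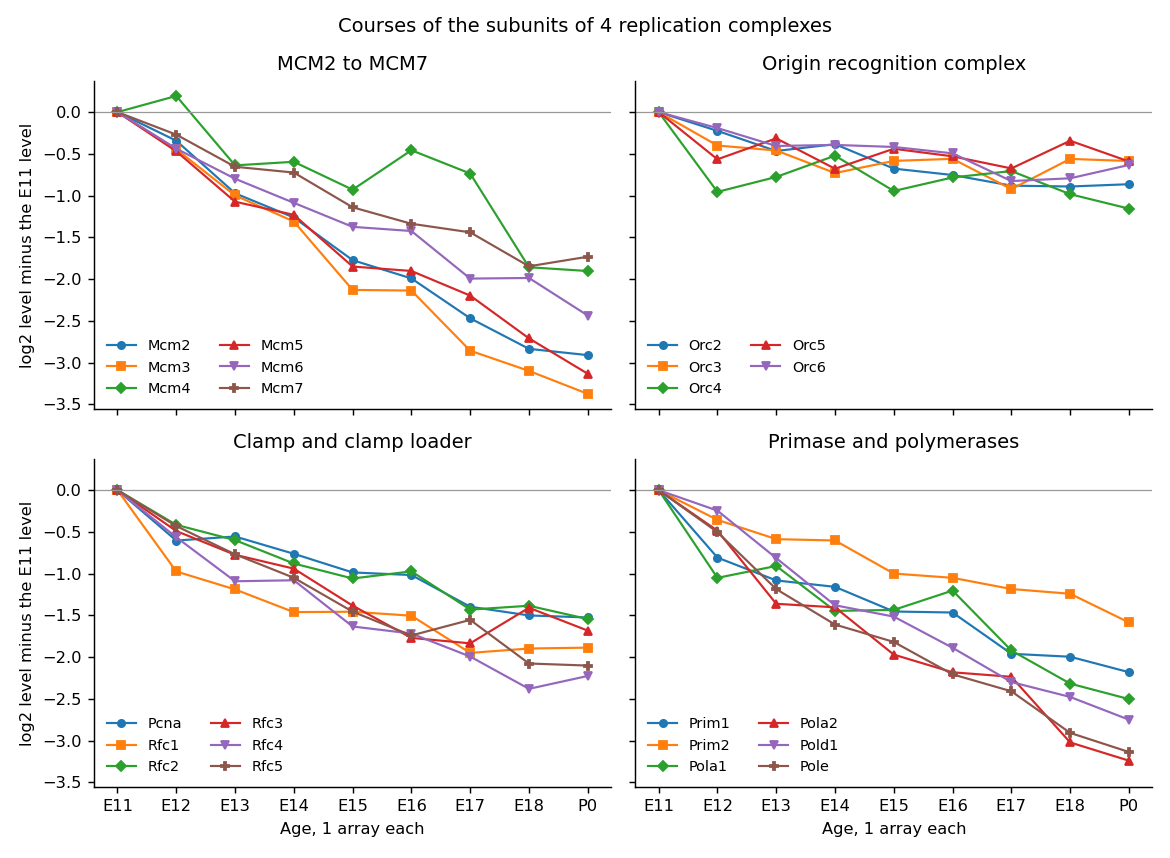
Course of the subunits of 4 replication complexes, as the log2 level at each age (E11 to P0, 1 array each) minus the same gene's level at E11. At P0 the origin recognition subunits lie at -1.16 to -0.59 and the MCM2-7 subunits at -3.37 to -1.73.

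Helicase activation needs Cdc45 and the GINS complex, which bind the ring, and the kinase Cdc7 with its activating subunit Dbf4. All 6 genes tested in this role fell, with a median slope of -0.31. Cdc45 read 8.38 at E11, 7.60 at E12, 7.05 at E13, 7.03 at E14, 6.32 at E15, 6.20 at E16, 5.75 at E17, 5.23 at E18 and 5.10 at P0. It fell in every step, by 0.39 ± 0.030 per day (adjusted p = 9.43e-06). Gins1 followed a like course, with 10.36 at E11, 9.62 at E12, 9.25 at E13, 9.23 at E14, 8.52 at E15, 8.24 at E16, 8.18 at E17, 7.66 at E18 and 7.36 at P0. Its slope was -0.35 ± 0.025 (adjusted p = 7.05e-06). Gins2 read 6.58 at P0, against 9.29 at E11, with a slope of -0.31 ± 0.028 (adjusted p = 2.8e-05).

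Gins3 had the flattest slope of the 3 GINS genes among the 49. It read 8.17 at E11, 7.67 at E12, 7.08 at E13, 7.53 at E14, 6.96 at E15, 6.87 at E16, 6.33 at E17, 6.41 at E18 and 6.77 at P0, so that the last 2 arrays were above that of E17. Its slope was -0.19 ± 0.039 (adjusted p = 0.00258), a call that was lost in the fit of E13 to P0 (adjusted p = 0.0934). Cdc45 and Gins1 fell faster. The slope of Cdc45 minus Gins3 was -0.20 ± 0.027 per day (exact permutation test, adjusted p = 0.0019 over 23 pairs) and that of Gins1 minus Gins3 was -0.16 ± 0.037 (exact permutation test, adjusted p = 0.0183). The fourth subunit of the complex, Gins4, from the list of further replication genes, was flatter, with a slope of -0.092 ± 0.021 (adjusted p = 0.00562). Both differences were lost when the probe sets of each gene were averaged, with adjusted p of 0.144 and 0.111. The second Cdc45 probe set that passed the filter was dimmer and had a slope of -0.14. The difference of Gins1 was also lost without the E12 array (0.0532) and without the P0 array (0.0908).

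The subunits of the Cdc7 kinase moved unequally. Dbf4, which is made and destroyed in each cycle, read 10.96 at E11, 10.57 at E12, 9.79 at E13, 9.81 at E14, 9.73 at E15, 9.34 at E16, 8.86 at E17, 8.72 at E18 and 8.22 at P0. Cdc7, the catalytic subunit, read 11.40 at E11, 10.76 at E12, 10.72 at E13, 11.00 at E14, 10.60 at E15, 10.73 at E16, 10.64 at E17, 10.42 at E18 and 9.88 at P0. Between E12 and E17 Cdc7 read between 10.60 and 11.00, while Dbf4 fell to 8.86 at E17, against 10.57 at E12. The slope of Dbf4 was -0.31 ± 0.025 (adjusted p = 1.34e-05) and that of Cdc7 was -0.13 ± 0.029 (adjusted p = 0.00541). The difference, Cdc7 minus Dbf4, was 0.19 ± 0.033 log2 units per day (exact permutation test, adjusted p = 0.0122 over 23 pairs). It passed in each of 14 alternative fits, with adjusted p of 0.0120 to 0.0405.

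The sliding clamp Pcna, which tethers polymerases to the template, read 14.14 at E11, 13.53 at E12, 13.58 at E13, 13.37 at E14, 13.15 at E15, 13.12 at E16, 12.74 at E17, 12.64 at E18 and 12.61 at P0. It fell by 0.18 ± 0.018 per day (adjusted p = 4.55e-05) and was 2.88-fold lower at P0 than at E11. The clamp loader, replication factor C, opens the ring and places it on the DNA. All 5 of its subunits fell, with slopes of -0.28 ± 0.027 for Rfc4, -0.26 ± 0.026 for Rfc5, -0.21 ± 0.036 for Rfc3, -0.20 ± 0.036 for Rfc1 and -0.18 ± 0.021 for Rfc2 (adjusted p between 4.09e-05 and 0.00136). Rfc1, the large subunit, read 8.85 at P0, against 10.73 at E11, and its slope in the fit of E13 to P0 was -0.12 (adjusted p = 0.0160). None of the 4 small subunits differed in slope from Rfc1 past the threshold, the nearest being Rfc4 with a difference of -0.082 ± 0.028 (exact permutation test, adjusted p = 0.0802). The Rfc4 difference did pass without the E11 array (-0.11, adjusted p = 0.0363) and with averaged probe sets (-0.12, adjusted p = 0.0152).

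Rfc3 had covered 82.2% of its difference between E11 and P0 by E15. It read 9.48 at E11, 8.99 at E12, 8.70 at E13, 8.54 at E14, 8.09 at E15, 7.71 at E16, 7.64 at E17, 8.07 at E18 and 7.80 at P0. The last 2 arrays were above that of E17, and in the fit of E13 to P0 its slope did not pass (adjusted p = 0.0514).

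Replication protein A coats the single strands behind the helicase. Rpa1, its large subunit, read 13.12 at E11, 12.75 at E12, 12.60 at E13, 12.26 at E14, 12.11 at E15, 12.08 at E16, 11.71 at E17, 11.53 at E18 and 11.42 at P0. It fell in every step, by 0.21 ± 0.015 per day (adjusted p = 7.49e-06). Rpa2 read 8.61 at P0, against 10.66 at E11, with a slope of -0.24 ± 0.022 (adjusted p = 2.9e-05). Rpa3, the small subunit, scattered more, with 10.17 at E11, 9.22 at E12, 9.66 at E13, 9.09 at E14, 8.98 at E15, 9.26 at E16, 8.32 at E17, 9.07 at E18 and 8.74 at P0. Its slope of -0.15 ± 0.042 (adjusted p = 0.0172) did not pass without the E11 array (adjusted p = 0.112), in the fit of E13 to P0 (0.130) or by rank correlation (exact permutation test, 0.0535).

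Primase and the polymerases copy the strands, and 6 of 6 fell, with a median slope of -0.31. Pola2, the regulatory subunit of polymerase alpha, was the steepest of them. It read 9.09 at E11, 8.61 at E12, 7.73 at E13, 7.69 at E14, 7.12 at E15, 6.91 at E16, 6.86 at E17, 6.07 at E18 and 5.85 at P0, with a slope of -0.38 ± 0.031 (adjusted p = 1.23e-05). Pola1, the catalytic subunit, read 7.43 at P0, against 9.94 at E11, with a slope of -0.26 ± 0.036 (adjusted p = 0.000326). Pole, the catalytic subunit of the leading-strand polymerase, read 6.89 at P0, against 10.02 at E11, with a slope of -0.38 ± 0.025 (adjusted p = 5.84e-06). Pold1, that of the lagging-strand polymerase, read 8.08 at P0, against 10.83 at E11, with a slope of -0.35 ± 0.022 (adjusted p = 4.99e-06). The slopes of Pold1 and Pole differed by 0.027 ± 0.016 (exact permutation test, adjusted p = 0.225), a small difference beside either slope.

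The primase subunits, which lay the RNA primers, were flatter. Prim1 read 9.71 at P0, against 11.89 at E11, and fell by 0.24 ± 0.026 per day (adjusted p = 7.88e-05). Prim2 read 7.75 at P0, against 9.33 at E11, and fell by 0.18 ± 0.020 per day (adjusted p = 0.000107). Their slopes differed by -0.062 ± 0.021 (exact permutation test, adjusted p = 0.0535). A second Prim2 probe set had a slope of -0.13 that did not pass (adjusted p = 0.125).

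Lagging-strand pieces are trimmed by the flap nuclease Fen1 and sealed by DNA ligase 1. Lig1 read 11.34 at E11, 10.83 at E12, 10.47 at E13, 9.98 at E14, 9.75 at E15, 9.57 at E16, 8.88 at E17, 8.51 at E18 and 8.37 at P0, an unbroken decline of 0.37 ± 0.020 per day (adjusted p = 4.99e-06). Fen1 read 12.89 at E11, 12.39 at E12, 11.79 at E13, 11.99 at E14, 11.15 at E15, 11.37 at E16, 11.60 at E17, 11.54 at E18 and 10.96 at P0. Its slope over the course was -0.19 ± 0.039 (adjusted p = 0.003), a call that was lost in the fit of E13 to P0 (-0.11, adjusted p = 0.129). Between E15 and E18 this probe set read 11.15 to 11.60, while the dimmer one read 8.10 at E15, 8.04 at E16, 7.27 at E17 and 7.14 at E18 and fell by 0.35 per day over the course. The difference between Fen1 and Lig1 did not pass (0.19 ± 0.051, exact permutation test, adjusted p = 0.0535).

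All 4 genes of nucleotide supply fell, with a median slope of -0.36. Rrm2, the subunit of ribonucleotide reductase made in S phase, read 13.68 at E11, 13.32 at E12, 12.64 at E13, 12.65 at E14, 12.08 at E15, 12.13 at E16, 11.62 at E17, 10.85 at E18 and 10.89 at P0. Its slope was -0.35 ± 0.024 (adjusted p = 6.23e-06), and 3 probe sets of the gene gave slopes of -0.47 to -0.35. Rrm1, the large and more stable subunit, read 9.97 at P0, against 12.40 at E11, and fell by 0.26 ± 0.030 per day (adjusted p = 0.000129). The difference between the subunits, -0.096 ± 0.029, had an adjusted p of 0.0535 in the exact permutation test. It passed without the E11 array (-0.14, adjusted p = 0.00856) and with averaged probe sets (-0.13, adjusted p = 0.0122).

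Tk1, thymidine kinase of the salvage pathway, read 6.84 at P0, against 10.17 at E11, and fell in every step at 0.39 ± 0.026 per day (adjusted p = 6.21e-06). Tyms, thymidylate synthase, was read by a dim probe set with 6.10 at E11, 6.62 at E12, 5.12 at E13, 5.09 at E14, 4.65 at E15, 4.73 at E16, 4.23 at E17, 3.65 at E18 and 3.26 at P0. Only the first 4 arrays were above log2 5, and the slope was -0.37 ± 0.047 (adjusted p = 0.000187). With readings under log2 5 set to 5 it was -0.16 (adjusted p = 0.0238). A brighter probe set that carries the names of both Tyms and its pseudogene Tyms-ps read 6.88 at P0, against 10.39 at E11, with a slope of -0.42.

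Chaf1b, a subunit of the chaperone that sets histones on new DNA, read 9.32 at E11, 8.69 at E12, 8.30 at E13, 7.98 at E14, 7.33 at E15, 7.46 at E16, 6.96 at E17, 6.46 at E18 and 6.93 at P0. It was lowest at E18, and its slope was -0.32 ± 0.036 (adjusted p = 9.31e-05).

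The genes of S-phase entry fell too, 3 of 3, with a median slope of -0.21. E2f1, a transcription factor that activates replication genes, read 7.499 at E11, 7.42 at E12, 6.55 at E13, 6.83 at E14, 6.44 at E15, 6.30 at E16, 5.01 at E17, 4.32 at E18 and 5.41 at P0. It dropped at E17 and E18 and was higher again at P0, with a slope of -0.35 ± 0.059 (adjusted p = 0.000869). The cyclins E activate Cdk2 at the start of S phase. Ccne2 read 8.25 at P0, against 10.37 at E11, with a slope of -0.21 ± 0.039 (adjusted p = 0.00177). Ccne1 read 8.63 at P0, against 9.62 at E11, with a slope of -0.11 ± 0.032 (adjusted p = 0.0163). The call of Ccne1 was lost without the E12 array (adjusted p = 0.0536) without the P0 array (0.0713), in the fit of E13 to P0 (0.212) and by rank correlation (exact permutation test, 0.102), and its second, dimmer probe set had a slope of -0.22.

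The shape of the decline was examined with a fit that lets the slope change at E15, the middle age. No member had a change of slope past the threshold (0 of 47 in limma, lowest adjusted p = 0.105), where 5.83% of all genes tested did. At an unadjusted p of 0.05, 4 of the 47 passed, compared with 20.3% of all genes tested. A fit with age squared called 0 of the 47 at the adjusted threshold, compared with 6.86% of all genes tested. At an unadjusted p of 0.05 it passed 6 of the 47, a count not made over all genes tested. The median slope was -0.32 per day from E11 to E15 and -0.21 from E15 to P0. Up to E15, 37 of the 47 fell, compared with 13.0% of all genes tested, and after E15, 19 of the 47, compared with 2.04%. The late slope was below 0 in 44, a count not made over all genes tested. By E15 a median of 61.98% of a gene's difference between E11 and P0 had been covered.

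In the 4 genes with an unadjusted p under 0.05, none of which passed, the late slope was the less negative one. Rfc3 had slopes of -0.37 ± 0.058 before E15 and -0.047 ± 0.058 after it (unadjusted p = 0.0112 for the change, adjusted p = 0.105, limma). For Fen1 they were -0.35 ± 0.066 and -0.029 ± 0.066 (unadjusted p = 0.0217, adjusted p = 0.152). For Mcm8 they were -0.48 ± 0.10 and 0.013 ± 0.10 (unadjusted p = 0.0218, adjusted p = 0.152). For Chaf1b they were -0.46 ± 0.066 and -0.19 ± 0.066 (unadjusted p = 0.0426, adjusted p = 0.225). Genes such as Lig1 had nearly one slope throughout, with -0.39 ± 0.046 before E15 and -0.36 ± 0.046 after it.

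**Figure D4:**
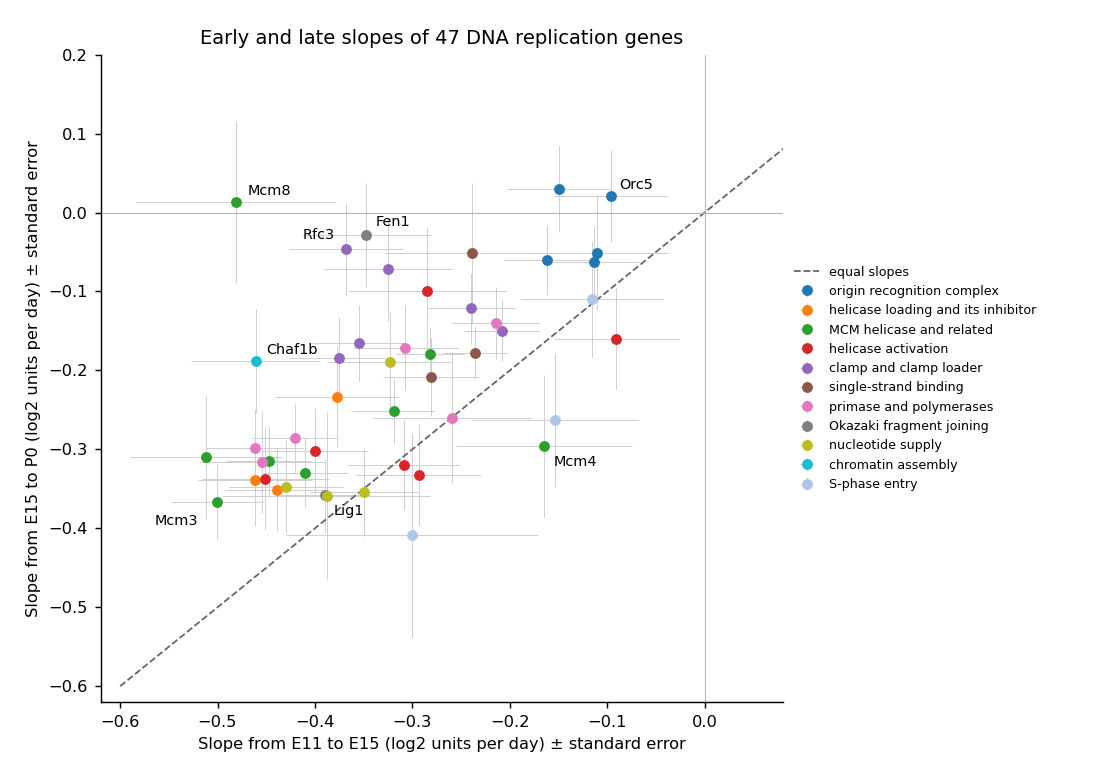
Slope from E11 to E15 (x axis) against slope from E15 to P0 (y axis) for the 47 genes, in log2 units per day with standard errors, coloured by role. Points above the dashed line of equal slopes, 39 of 47, had a less negative slope after E15, and 44 lie below the horizontal line at 0. Neither count was made over all genes tested.

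Where a gene had several probe sets, they moved the same way. For 27 members more than 1 probe set passed the filter. In all 27 every slope was below 0, in 24 every probe set passed the threshold downward, and the median spread between the slopes of a gene was 0.050 log2 units per day. The probe set of highest mean, which was the one used, had the flattest slope in 14 of the 27.

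Promoters of the genes were searched for the letters of the E2F site, because the genes moved together and many are known E2F targets. Promoter sequences (RefSeq, mouse build GRCm38.p6, 250 bases before the start and 50 after it) were on hand for 41 of the 49. The words TTTCCCGC, TTTGGCGC, TTTCGCGC and TTTGCCGC were sought on both strands, with overlapping matches taken as 1. A match stood in 13 of 41 promoters (31.7%), compared with 4.28% of the promoters of genes tested and 2.32% of all 27025 promoters. The 13 genes were Mcm3, Mcm5, Mcm6, Mcm7, Mcm8, Cdc6, Cdt1, Orc1, Orc3, Gins3, Rfc3, Pola1 and Pold1. The 4 promoters with 2 matches each are shown 5′ to 3′ on the strand of the gene, with the matches in capitals. They are Mcm3 (chr1:20820263-20820562, minus strand), Mcm6 (chr1:128359656-128359955, minus strand), Mcm7 (chr5:138171834-138172133, minus strand) and Rfc3 (chr5:151651159-151651458, minus strand).
Mcm3: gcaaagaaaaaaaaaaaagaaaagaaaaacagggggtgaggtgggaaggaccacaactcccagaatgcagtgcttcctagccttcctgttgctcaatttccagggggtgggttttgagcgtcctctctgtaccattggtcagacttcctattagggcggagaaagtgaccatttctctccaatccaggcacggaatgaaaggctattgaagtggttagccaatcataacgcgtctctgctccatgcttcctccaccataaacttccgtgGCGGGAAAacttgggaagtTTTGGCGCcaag
Mcm6: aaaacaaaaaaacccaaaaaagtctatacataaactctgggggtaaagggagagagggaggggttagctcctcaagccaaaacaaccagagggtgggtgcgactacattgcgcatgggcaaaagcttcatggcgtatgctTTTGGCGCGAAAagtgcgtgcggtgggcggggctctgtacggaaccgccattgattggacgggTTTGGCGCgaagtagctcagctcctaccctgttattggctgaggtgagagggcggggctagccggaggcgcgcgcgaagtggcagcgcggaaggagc
Mcm7: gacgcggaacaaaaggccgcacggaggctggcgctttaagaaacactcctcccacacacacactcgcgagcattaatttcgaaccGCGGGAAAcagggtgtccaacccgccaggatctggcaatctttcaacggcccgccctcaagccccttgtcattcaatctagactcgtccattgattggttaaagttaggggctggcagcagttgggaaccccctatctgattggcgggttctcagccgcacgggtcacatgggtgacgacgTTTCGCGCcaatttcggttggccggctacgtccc
Rfc3: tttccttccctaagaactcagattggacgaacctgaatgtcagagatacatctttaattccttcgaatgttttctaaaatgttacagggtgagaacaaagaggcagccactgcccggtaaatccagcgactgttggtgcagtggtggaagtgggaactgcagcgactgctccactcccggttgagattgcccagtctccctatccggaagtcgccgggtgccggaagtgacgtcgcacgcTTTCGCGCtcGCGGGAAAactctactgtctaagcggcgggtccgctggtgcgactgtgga
Counted from the start as base 1, the matches begin at 20 and 39 in Mcm3, at -110 and -47 in Mcm6, at -165 and 17 in Mcm7, and at -10 and 1 in Rfc3. A match is a run of letters and was not tested for binding.

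The slopes of members with and without a match were not tested against each other. The median slope was -0.27 over the 12 tested members with a match and -0.26 over the 27 without, and genes with a match ranged from Mcm3 at -0.43 to Orc3 at -0.060. The promoters of mitosis genes, a list described next, held other words. The word of the cell cycle homology region, TTTGAA or TTCGAA on either strand, stood in 17 of 22 promoters of mitosis genes (77.3%), in 8 of 41 of replication genes (19.5%), in 13.2% of those of genes tested and in 19.4% of all promoters. The E2F words stood in 1 of the 22 mitosis promoters. CCAAT or its reverse complement was found in 23 of 41 replication promoters (56.1%), 77.3% of mitosis promoters, 38.8% of those of genes tested and 37.9% of all promoters.

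Further genes of replication went the same way. Of 43 tested, 40 fell, 0 rose and 3 did not pass, with a median slope of -0.24. The steepest were Clspn, a checkpoint adaptor at the fork (-0.45 ± 0.030), Dna2, a nuclease and helicase (-0.42 ± 0.039), Asf1b, a histone chaperone (-0.41 ± 0.037), and Uhrf1, which couples DNA methylation to replication (-0.41 ± 0.035), each with an adjusted p of at most 3.56e-05. Those that did not pass were Rnaseh1, which removes RNA from RNA-DNA hybrids, and Pole4 and Pold4, small polymerase subunits, with slopes of -0.051, 0.057 and 0.12 and adjusted p of 0.0973, 0.193 and 0.0543.

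Other lists of cell cycle genes differed from each other. All 24 mitosis and kinetochore genes tested fell, with a median slope of -0.40, and their median level was 7.57 at P0, against 11.03 at E11. The steepest were Ttk, a checkpoint kinase (-0.48 ± 0.044), and Cenpe, a kinetochore motor (-0.47 ± 0.033). The list of G1 cyclins and CDK inhibitors, which also holds the kinases Cdk4 and Cdk6 as well as Rb1, did not share one direction. Of its genes 3 fell, 1 rose and 7 of 11 did not pass. For so few genes, the 3 falling are close to the 21.9% of all genes tested that fell. The 1 rising is not above the 25.2% that rose. Ccnd1, a cyclin that drives G1, had a slope of -0.41 ± 0.051 (adjusted p = 0.000176), and Cdkn1a, a CDK inhibitor, had 0.32 ± 0.053 (adjusted p = 0.000869).

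**Figure D5:**
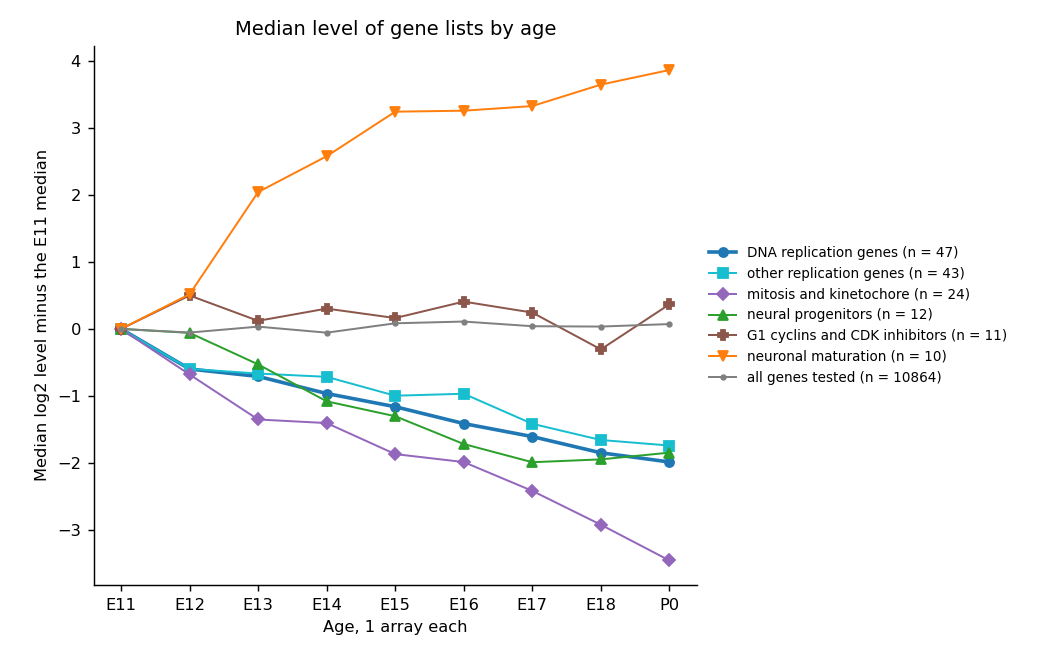
Median log2 level of the tested genes of each list at each age (E11 to P0, 1 array each), minus the same median at E11. At P0 replication genes stand at -1.99 and mitosis genes at -3.46, neuronal maturation genes at 3.87 and all genes tested at 0.072.

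Markers of cell types moved in both directions, and their part in the decline of the replication genes was not tested. Of 12 neural progenitor genes 11 fell, with a median slope of -0.27 and a median level of 9.07 at P0, against 10.92 at E11. The largest slopes were those of Nr2e1 (-0.60 ± 0.056) and Sox3 (-0.58 ± 0.070), both transcription factors of progenitors. Sox2 and Vim, picked after their values were seen, also fell, and read 12.11 and 12.81 at P0, against 12.89 and 14.18 at E11. All 10 genes of neuronal maturation rose, with a median of 11.19 at P0, against 7.32 at E11. Of 11 bulb interneuron genes 10 rose, and of 9 projection neuron genes 5 rose and 2 fell. Among all genes tested 25.2% rose and 21.9% fell.

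Genes of other cells in the dissected tissue also changed with age. All 9 astrocyte genes tested, 7 of 7 olfactory ensheathing cell genes, 8 of 9 meningeal genes, 5 of 6 oligodendrocyte precursor genes and 5 of 6 microglial genes rose. Endothelial genes had 2 rising and 1 falling of 6, not far from the shares of all genes tested (25.2% rising, 21.9% falling). Of 5 red cell genes 4 fell, with a median level of 3.02 at P0, against 13.19 at E11 and 11.39 at E12. The first 2 arrays were thus the high ones for the median, but not for every gene. Hbb-y read 15.52 at E11 and still 15.01 at E13 and 14.48 at E14. Alas2, which did not pass, read 7.76 at E12 and 8.54 at E16. The other genes of this list went with the median.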

How the data were processed

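RNA of the olfactory bulb was hybridised to 1 array per age, 9 in all. Per the submitters' processing notes, the authors deposited log2 levels per probe set from GCRMA, of a version not given in the sources used here. That the scale is log2 follows from the values' range and from that method. There were 45101 probe sets, of which 64 controls were left out. In the platform annotation 34958 probe sets had 1 gene name, 932 several and 9211 none. A lookup by Entrez ID covered 34754 of them and changed 0 symbols.

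Probe sets of log2 5 or more on at least 2 arrays with exactly 1 gene name were used, the one of highest mean per gene, which left 10864 genes. No rescaling was applied. Slopes on age (E11 as day 11, P0 as day 19) were fitted with limma 3.58.1 in R 4.3.3, with a moderated variance following the mean level, a two-sided test and Benjamini-Hochberg adjustment over all genes at 0.05. The fit left 7 residual degrees of freedom (10.3 moderated), and the median residual standard deviation was 0.24. Errors are moderated standard errors, and ordinary ones for pair differences. Slopes of further probe sets of a gene came from the same kind of fit over single probe sets. It held all those past the filter plus every probe set of a member, and p was adjusted over these. Folds take values under log2 5 as 5. Pairs of members were compared by the slope of their within-array difference with an exact two-sided permutation test over all 362880 orders of the ages (smallest possible p 5.51e-06), adjusted over the 23 pairs tested. P-values rest on the scatter of single arrays around a trend. With 1 array per age, differences between animals, differences between arrays and departures from the trend cannot be told apart in it.

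The members, the gene lists, the pairs and the naming rule (every member, the 4 steepest of the further replication genes and at most 2 per other list) were chosen with earlier results of these data known. Nr2e1 and Sox3 followed that rule. Sox2, Vim, Hbb-y and Alas2 were picked after their values were seen, as were the non-passing replication genes. The scripts were tested on simulated data. Alternatives covered scaling, filter, probe set choice, test, age of P0, Xist as a covariate because the animals' sex varied between ages, a fit without E11 and E12, and leaving out each array.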

Additional observations from a re-analysis of the deposited data

How the results depend on the processing

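The count of falling replication genes (44) kept within 36 to 46 over 21 alternatives and that of rising ones stayed 0. It was 36 from E13 to P0 alone, 38 without the probe sets whose IDs mark possible cross-matching, which left fewer genes to test, 46 after median centring and 42 to 44 with 1 array left out. No member's slope changed sign in any alternative fit of that member. Over all genes, the E13 to P0 fit called 1193 falling and 1529 rising, with fewer arrays, and leaving out 1 array gave 1788 to 2332 falling and 2223 to 2758 rising. The count of changes of slope at E15 was 1 without those probe sets (Cdt1, by its second probe set), and 0 in the other alternatives, 0 to 0 with 1 array left out.

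The 3 unequal pairs became 5 after quantile normalization and 8 with readings under log2 5 set to 5. With 1 array left out they were 2 to 6 (6 without E11). The count was 11 with the 5 Orc pairs added after the data were seen. The low p-values of these added pairs loosened the adjustment for the others. Only for this reason did the 11 include Fen1 minus Lig1, Rrm2 minus Rrm1 and Prim1 minus Prim2. Without the added pairs each had an adjusted p of 0.0535 (exact permutation test). The 11 is thus not further evidence of unequal change. Pair differences that did not pass changed sign for Tk1 minus Tyms (0.000496 after quantile normalization) and Gins1 minus Gins2 (0.016 with averaged probe sets). With 1 array left out they ranged over both signs for Tk1 minus Tyms (-0.068 to 0.039), Mcm2 minus Mcm10 (-0.00092 to 0.047), Pcna minus Rfc1 (-0.020 to 0.036), Rfc2 minus Rfc1 (-0.023 to 0.036), Rfc3 minus Rfc1 (-0.038 to 0.0062) and Mcm2 minus E2f1 (-0.077 to 0.017), with the other sign without E11, E12 or P0; the cause was not tested. No paired analysis was possible because each age had 1 array and the replicate number only names it. Readings under log2 5, as for Orc1, Mcm8 and Tyms, lie near the background of the array and limit those values.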
